A study of Mus musculus with 6 samples.

Results

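The peaks at the protocadherin genes were compared between young and aged organoids of the mouse small intestine. Members were the consensus ATAC-seq peaks whose deposited annotation assigns them to a gene whose name starts with Pcdh, with its transcription start site (TSS) at most 50 kb away. Of the 156733 consensus peaks, 47 met the rule, and they carry the names of 25 genes. The clustered genes (Pcdha, Pcdhb and Pcdhg) had 20 of these peaks under 18 gene names, and the other protocadherins had 27 under 7. Without the distance limit the names gave 53 peaks. Just inside the limit, a Pcdh1 peak 44443 bp from the TSS had 2.95, 2.95 and 3.59 CPM, counts scaled to library size, in the young and 3.59, 3.23 and 2.64 in the aged libraries. Just outside it, a Pcdh1 peak at 58014 bp had 0.56, 0.98 and 1.32 in the young and 1.64, 1.16 and 0.89 in the aged.

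ATAC-seq maps open chromatin by letting the Tn5 transposase insert sequencing adapters where DNA is accessible. The organoids, cultures of self-renewing epithelium, were grown from C57BL/6JRj mice. The 3 young libraries came from mice of 2 to 3 months and the 3 aged libraries from mice of 20 to 22 months. Both groups were untreated and spent 3 to 5 weeks in culture. Replicates 1, 2 and 3 of each age were at passage 4, 3 and 2. Each library came from 100000 lysed cells and 20 cycles of PCR. Whether the replicates of an age stem from different mice is not stated, and titles and descriptions give different culture codes. The p-values therefore measure the spread between these samples, which may be technical.

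Protocadherins are adhesion molecules of the cadherin superfamily that bind the same protein on a neighbouring cell. The clustered genes lie in 3 tandem arrays. Each Pcdha and Pcdhg gene contributes a variable first exon with its own promoter that is spliced to exons shared by the array, whereas the Pcdhb genes have no shared exons. In neurons, the choice among these promoters depends on CTCF, cohesin and DNA methylation, and gives each cell its own set of surface proteins. The other protocadherins lie apart in the genome, are best known from the nervous system, and Pcdh1 is also known from epithelia.

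The protocadherin peak with the smallest p for age lay at the start of Pcdh10, a protocadherin that binds the WAVE actin-regulatory complex. The 250 bases upstream of its RefSeq start, at chr3:45378148-45378397 on the plus strand of GRCm38.p6, are shown beside those of 3 other protocadherins whose promoter peaks did not pass the test. These are Pcdh18 (chr3:49757317-49757566, minus strand), Pcdh17 (chr14:84443313-84443562, plus strand) and Pcdh8 (chr14:79771313-79771562, minus strand). They run 5′ to 3′ towards the gene, are credited to RefSeq, and have each CpG dinucleotide, the site of DNA methylation, in capitals.
Pcdh10: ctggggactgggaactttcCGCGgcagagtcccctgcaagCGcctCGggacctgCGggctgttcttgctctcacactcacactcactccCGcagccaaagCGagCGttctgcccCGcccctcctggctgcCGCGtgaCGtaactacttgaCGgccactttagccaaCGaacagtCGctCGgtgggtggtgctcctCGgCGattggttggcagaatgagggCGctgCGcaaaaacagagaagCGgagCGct
Pcdh18: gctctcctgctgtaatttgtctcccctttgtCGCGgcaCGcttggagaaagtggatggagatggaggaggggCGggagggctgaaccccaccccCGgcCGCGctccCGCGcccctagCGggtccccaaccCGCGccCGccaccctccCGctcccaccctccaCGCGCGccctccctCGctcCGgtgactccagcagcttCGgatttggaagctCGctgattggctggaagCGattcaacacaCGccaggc
Pcdh17: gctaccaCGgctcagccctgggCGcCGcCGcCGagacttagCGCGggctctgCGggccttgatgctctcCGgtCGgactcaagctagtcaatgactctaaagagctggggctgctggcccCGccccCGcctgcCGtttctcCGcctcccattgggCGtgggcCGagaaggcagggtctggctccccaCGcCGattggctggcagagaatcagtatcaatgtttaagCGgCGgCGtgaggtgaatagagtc
Pcdh8: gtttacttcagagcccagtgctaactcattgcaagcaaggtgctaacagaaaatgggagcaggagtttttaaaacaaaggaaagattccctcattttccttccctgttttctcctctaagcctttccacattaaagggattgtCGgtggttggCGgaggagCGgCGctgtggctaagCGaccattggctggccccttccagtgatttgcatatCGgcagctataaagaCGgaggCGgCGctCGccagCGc

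The Pcdh10 sequence held 22 CpG dinucleotides, Pcdh18 23, Pcdh17 21 and Pcdh8 11. The ratio of observed to expected CpG was 0.88 for Pcdh10, 0.81 for Pcdh18, 0.80 for Pcdh17 and 0.67 for Pcdh8. Over 32851 RefSeq windows of this length the median ratio was 0.37, and it was 0.70 in the 49.5% that overlapped a consensus peak. Pcdh10, Pcdh17 and Pcdh18 lay above the median of the promoters in a peak, and Pcdh8 lay just under it. CGCT, the core of an element shared by clustered protocadherin promoters, was counted on both strands. It occurred 8 times upstream of Pcdh10, 7 times upstream of Pcdh18, 5 times upstream of Pcdh8 and 2 times upstream of Pcdh17. It was found in 55.7% of all windows and in 79.0% of those in a peak, and each match holds a CpG. TATAAA had 1 match, upstream of Pcdh8, and 12.4% of all windows held one. GGNGGCAG, part of the CTCF motif, was in 9.93% of all windows and had no match in these 4.

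The counts in peaks ranged from 7278161 (young replicate 1) to 26093521 per library, and young replicate 1 had 5283 peaks at 0 against 123 to 718 in the others. Young replicate 1 and young replicate 3 stood apart on the first and second principal components, which held 37.6% and 22.3% of the variance. Epithelial identity was checked at promoters. Of 14 epithelial marker genes, 11 had a peak within 1 kb of the TSS, with a median of 34.2 CPM. The same median was 6.67 for 7 of 14 neural and glial genes with a peak, 2.84 for 6 of 13 stromal and endothelial genes and 0.99 for 4 of 12 immune genes. It was 5.54 for 10 of 11 enteroendocrine and tuft genes, and 12.8 over the promoter peaks of all genes. Only Ret (26.9) of the neural and glial genes and Pdgfra (19.3) of the stromal and endothelial genes lay above 12.8 CPM. Of the epithelial genes only Olfm4 (9.93) lay below it. Because these are bulk libraries, fewer cells of a type and less signal per cell cannot be told apart.

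By edgeR's quasi-likelihood test with Benjamini-Hochberg adjustment over 132055 peaks, 5 protocadherin peaks were called at an adjusted p under 0.05, 4 lower and 1 higher in aged organoids. Of all tested peaks 1.13% were called, 0.51% lower and 0.619% higher. Of the 47 peaks, 41 passed the filter on low counts and 6 were too low to test. The 4 lower peaks were all 3 of Pcdh10 and the start of Pcdhgb7, and the higher one lay in an intron of Pcdhac2. The tested peaks had a median log2 fold change (aged over young) of -0.10, with 24 below and 17 above 0, against a median of -0.01 and 52% below 0 over all tested peaks. In 12 protocadherin peaks every aged library lay below every young one, and in 4 every aged library lay above. The corresponding shares of all tested peaks were 7.09% and 7.66%. An unadjusted p under 0.05 was reached by 14 of the 41, against 9.71% of all tested peaks. Peaks of a gene or array are neighbours and are not independent, and a peak that passed the filter through the young libraries alone had to differ, so these counts describe the set only.

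**Figure D1:**
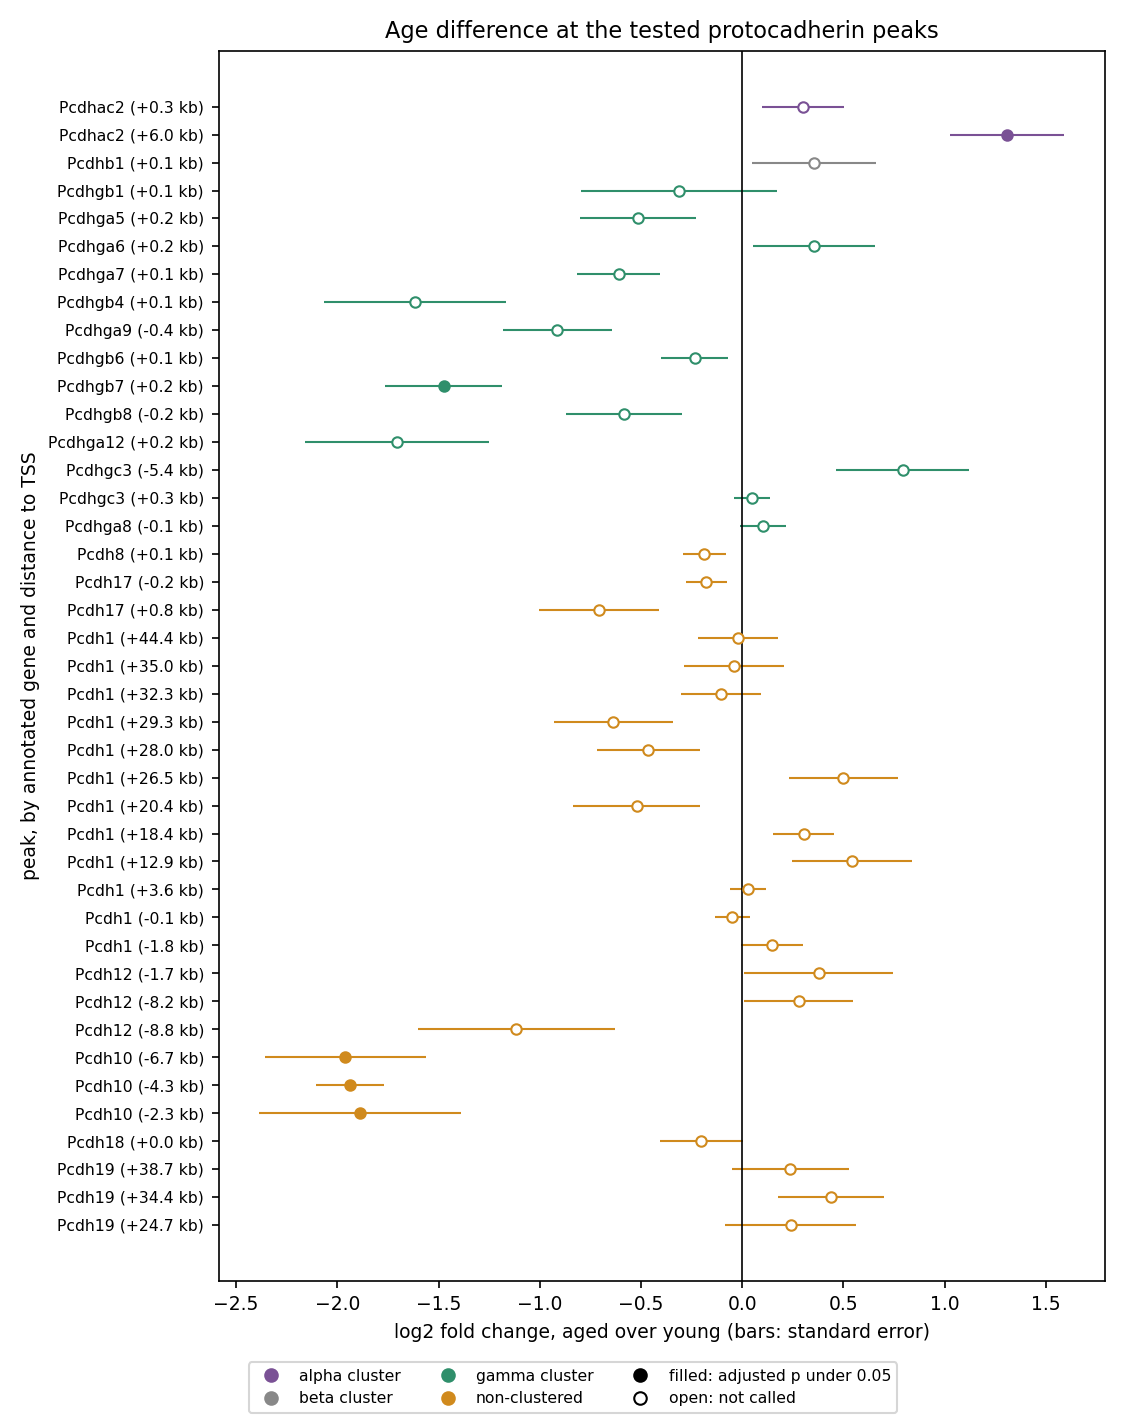
Log2 fold change, aged over young, with its standard error at the 41 tested protocadherin peaks (n = 3 per age), by the gene of the annotation and the distance to its TSS in kb. Filled points had an adjusted p under 0.05: the 3 Pcdh10 peaks and Pcdhgb7 lie left of 0 and 1 Pcdhac2 peak lies right of it.

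All 3 Pcdh10 peaks were called lower in aged organoids, with the smallest p at the promoter. Its promoter peak (chromosome 3, 45378152 to 45378492) had 9.82, 10.1 and 9.12 CPM in young replicates 1 to 3, and 2.18, 2.82 and 2.56 CPM in the aged. The groups were far from overlapping, and the 3 values within each age were close. The log2 fold change was -1.94 (SE 0.17), with an edgeR adjusted p of 2.2e-09. This peak was called in 15 of 15 processing alternatives, with adjusted p-values from 2.0e-19 to 1.6e-07. The annotation classes it as promoter but measures its distance, 4311 bp, to another TSS. By coordinates it contains the RefSeq start and covers 296 of the 300 bases of the RefSeq promoter window, most of the sequence printed above.

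The other Pcdh10 peaks were small and passed the filter on low counts through their young libraries, so a difference at them was favoured by the filter. The peak at 45375878 to 45376000, in an intron of a noncoding gene, had 1.40, 1.40 and 0.84 CPM in the young and 0.32, 0.28 and 0.31 in the aged (log2 -1.96, SE 0.40, edgeR adjusted p = 0.0042). Every aged library lay below every young one. Without young replicate 2 its adjusted p was 0.082, and over all 13 alternatives that tested it the range was 0.00068 to 0.082. The peak at 45380260 to 45380381, in exon 1, held 4, 22 and 12 counts in the young and 5, 4 and 4 in the aged libraries, or 0.56, 0.83 and 0.63 against 0.23, 0.18 and 0.16 CPM. Its log2 fold change was -1.89 (SE 0.50, edgeR adjusted p = 0.0473), and that call rested on few counts. It was lost in 8 of 12 alternatives, among them no filter on low counts (0.0711), passage as a term (0.0519) and the omission of any library (0.108 to 0.272). Together the 3 peaks summed to 11.6 ± 0.88 CPM in young and 3.01 ± 0.28 CPM in aged organoids (SD, n = 3).

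**Figure D2:**
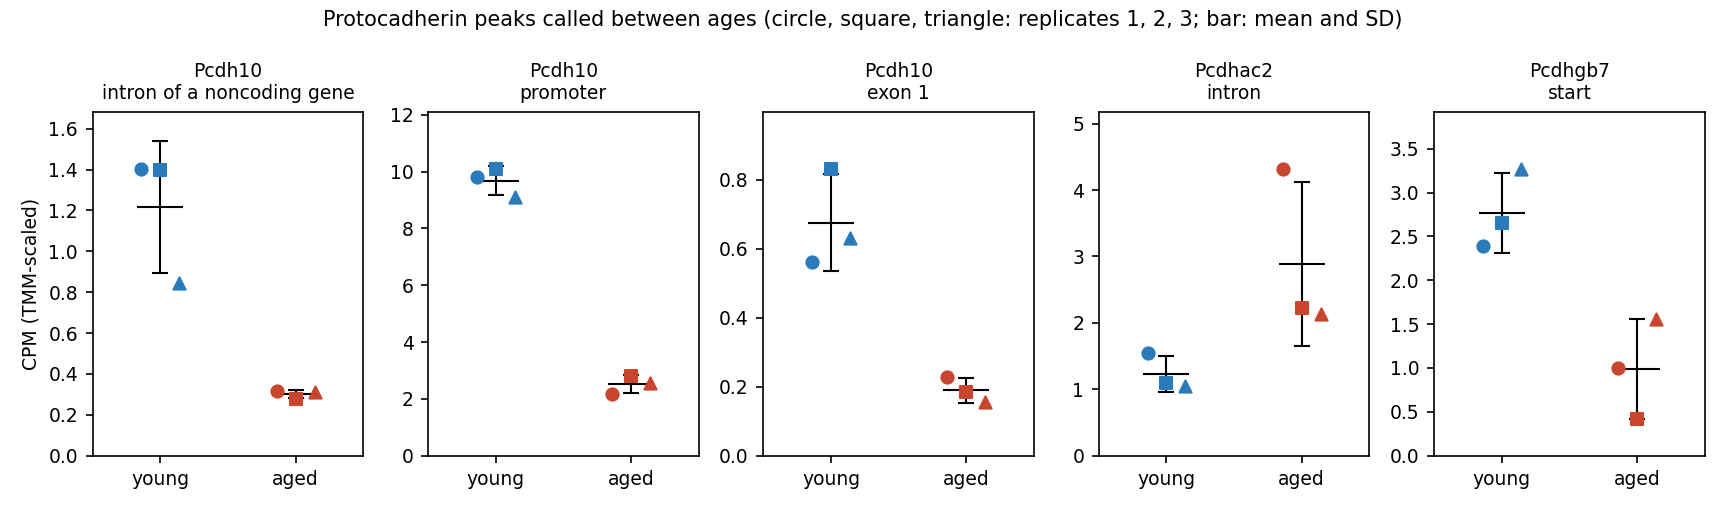
CPM of each library at the 5 protocadherin peaks called between ages, with mean and SD (n = 3 per age). The aged libraries lie below the young ones in the 3 Pcdh10 peaks and in Pcdhgb7, and above them in the Pcdhac2 intron peak.

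The promoter peaks annotated to Pcdh17, Pcdh8 and Pcdh18 were not called. Pcdh17, which like Pcdh10 binds the WAVE complex, had 26.7, 23.1 and 22.3 CPM in the young and 21.9, 21.3 and 19.8 in the aged libraries at its promoter peak (log2 -0.18, SE 0.10). Pcdh8, known for drawing N-cadherin into the cell at synapses, had 18.5, 19.0 and 19.7 against 16.4, 18 and 16.0 CPM (log2 -0.19, SE 0.11). Pcdh18, whose cytoplasmic tail binds the adaptor Dab1, had 3.79, 3.59 and 2.69 against 2.73, 3.47 and 2.45 CPM (log2 -0.20, SE 0.21). Every aged value of Pcdh17 and of Pcdh8 was under every young value, by small margins, while those of Pcdh18 overlapped. Their edgeR adjusted p-values were 0.619, 0.615 and 0.830. A second, small Pcdh17 peak 792 bp into the gene had 0.98, 1.36 and 1.9 against 0.95, 1.02 and 0.78 CPM and did not pass the test (log2 -0.71, SE 0.29, adjusted p = 0.380).

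Pcdh1, the protocadherin known from epithelial cells, had the most accessible promoter peak per kb among the members and showed no called difference at any of its 12 peaks. Its promoter peak had 50.4, 40.6 and 45.4 CPM in the young and 43.7, 42.6 and 44.2 in the aged libraries (log2 -0.05, SE 0.09, edgeR adjusted p = 0.918). The groups overlapped. The log2 fold changes of the 12 ranged from -0.64 to 0.54. Summed over them, the level was 119 ± 7.29 CPM in young and 119 ± 1.79 CPM in aged organoids (SD, n = 3). By edgeR 0 of the 12 were called, with 1 at an unadjusted p under 0.05, and by DESeq2 0 were called. Per kb of peak, the Pcdh1 promoter peak averaged 144 CPM, and among the other non-clustered members with a promoter peak Pcdh17 averaged 45.7, Pcdh8 40.4, Pcdh10 17.9 and Pcdh18 4.62.

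Pcdh12, a protocadherin of the vascular endothelium, and the X-linked Pcdh19, known for acting with N-cadherin, had only small member peaks. The Pcdh12 peak with most counts, 8244 bp from its TSS, had 0.70, 1.44 and 1.64 CPM in the young and 1.5, 2.03 and 1.51 in the aged libraries (log2 0.28, SE 0.27). A neighbouring peak at 8834 bp had 0.98, 0.49 and 0.63 against 0.23, 0.23 and 0.39 CPM, and its edgeR adjusted p was 0.412 (log2 -1.12, SE 0.49). That peak passed the filter on low counts through its young libraries, so a difference at it was favoured by the filter. Of the 3 Pcdh19 peaks, that with most counts, in an intron 34389 bp from the TSS, had 1.26, 1.40 and 2.48 against 2.64, 1.62 and 2.91 CPM (log2 0.44, SE 0.26). Of the 12 non-clustered genes in RefSeq, Pcdh7, Pcdh9, Pcdh11x, Pcdh15 and Pcdh20 had no member peak.

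Peaks named for other genes covered a pair of protocadherin starts by coordinates, and these are not members. A peak named Gm26851 covered 280 bases of the Pcdh19 promoter window and had 11.7, 12.4 and 10.1 CPM in the young and 13.9, 15.3 and 14.5 in the aged libraries (log2 0.36, SE 0.12, edgeR adjusted p = 0.233). A peak named 4932441J04Rik covered 59 bases of the Pcdh7 window and had 0.84, 1.06 and 0.63 against 0.09, 0.23 and 0.35 CPM. This Pcdh7 peak was called lower in aged organoids (log2 -1.88, SE 0.48, edgeR adjusted p = 0.0355), from few counts. It passed the filter on low counts through its young libraries, so a difference at it was favoured by the filter. Both were chosen for their position over a protocadherin start.

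The clustered genes lie on chromosome 18, from 36930285 to 37841873 in RefSeq. Their peaks sat almost entirely at the gene starts, and mostly in the gamma array. A RefSeq start lay inside a peak for 1 of 14 Pcdha genes, 1 of 22 Pcdhb genes and 12 of 22 Pcdhg genes. The variable first exon begins at the start, and 11 of the 20 clustered peaks were classed as exon, against 5.84% of all consensus peaks. Stretches of near-identical sequence between these paralogues can share reads, and how such reads were treated is not stated in the labels or headers, so the assignment to single clustered genes is uncertain.

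**Figure D3:**
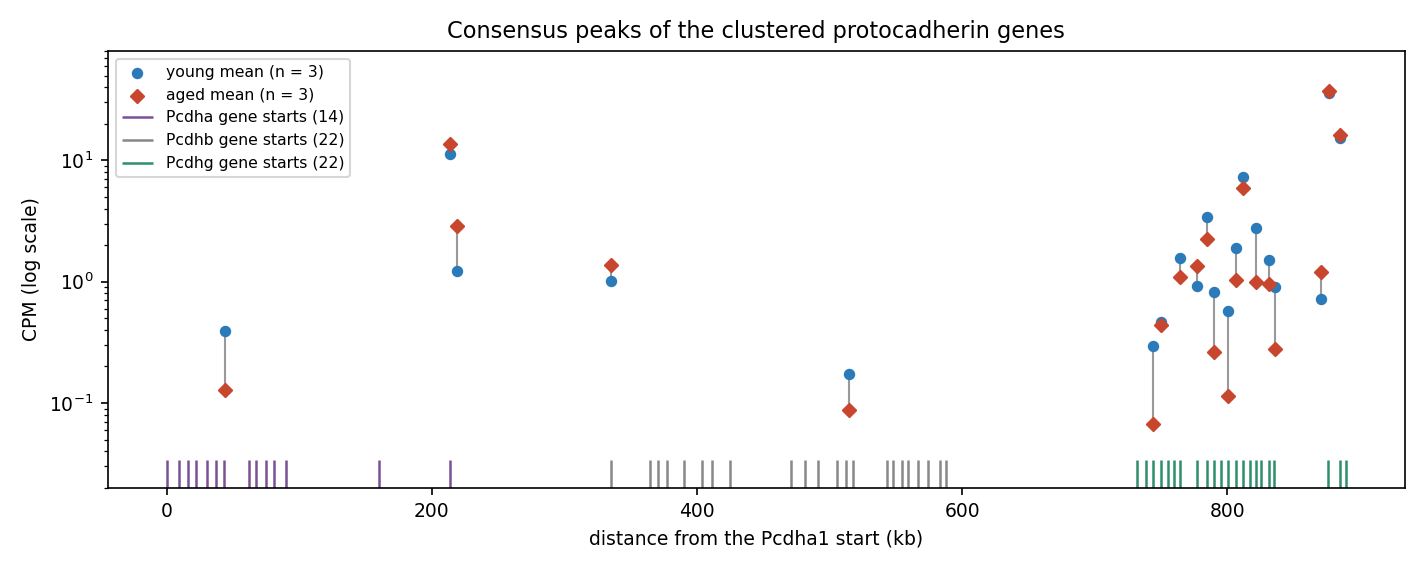
Mean CPM (log axis, n = 3 per age) of the 20 clustered protocadherin peaks against the distance in kb from the Pcdha1 start, with RefSeq gene starts as ticks. In the gamma array on the right most of the small peaks lie lower in aged organoids, while the large peaks at its end have nearly equal means.

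Within the gamma array, the A and B genes, each of which has its own variable exon of the A or B subfamily, had lower levels in aged organoids in sum. Their 12 peaks summed to 23.0, 23.0 and 21.0 CPM in the young and 14.5, 15.8 and 13.9 in the aged libraries, with no overlap. The means were 22.3 ± 1.18 and 14.7 ± 0.96 CPM (SD, n = 3). Of the 10 peaks tested, 9 had a negative log2 fold change (median -0.60), and 6 had every aged library below every young one, where 7.09% of all tested peaks did. Of these 10, the test called 1, against 1.13% of all tested peaks. Pcdhgb4 and Pcdhga12 passed the filter through their young libraries, so these counts are a description only. Over all 15 gamma peaks the sum was 77.2, 74.2 and 71.7 CPM in the young and 68.6, 74.2 and 65.5 in the aged libraries. These overlapped. That sum includes the Pcdhgc3 and Pcdhgc4 starts and a small peak upstream of Pcdhgc3. A sum over the A and B genes alone was not planned beforehand.

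The called gamma peak covers the start of Pcdhgb7 (37751561 to 37752049). It had 2.39, 2.65 and 3.27 CPM in the young and 1.0, 0.42 and 1.55 in the aged libraries (log2 -1.47, SE 0.29, edgeR adjusted p = 0.0036). Every aged library lay below every young one. It was called in 14 of 15 alternatives, and lost its call with libraries thinned to the shallowest total (adjusted p = 0.191, the highest of a range from 2.6e-06). Pcdhga12 had 0.84, 1.25 and 0.63 against 0.23, 0.14 and 0.47 CPM and just missed the threshold (log2 -1.70, SE 0.46, adjusted p = 0.0525). It passed in only 5 of its 13 alternatives. These were without aged replicate 3 (0.0335), without young replicate 3 (0.0302) and with no filter (0.0303). Library totals without scaling factors (0.0499) and the replicate block (0.0243) were the others. Over the 13 the range was 0.0243 to 0.369, the highest without young replicate 2, and DESeq2 gave 0.299. The Pcdhga12 peak held 6, 33 and 12 counts in the young and 5, 3 and 12 in the aged libraries.

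Pcdhgb4 had 0.84, 0.68 and 0.95 CPM in the young and 0.27, 0.28 and 0.23 in the aged libraries (log2 -1.62, SE 0.45, edgeR adjusted p = 0.0699). Pcdhga9 had 1.82, 1.97 and 1.9 against 1.0, 1.29 and 0.78 CPM (log2 -0.91, SE 0.27, adjusted p = 0.103). In both, the ages did not overlap. The Pcdhgb4 peak held only 6, 18 and 18 counts in the young and 6, 6 and 6 in the aged libraries. It passed the filter through its young libraries, so a difference at Pcdhgb4 was favoured by the filter. With the replicate number as a block both were called, at adjusted p-values of 0.0357 for Pcdhgb4 and 0.0415 for Pcdhga9, and the clustered peaks called then numbered 5 instead of 2, while calls over all tested peaks rose from 1491 to 3523. Among the A and B genes the peak of Pcdhgb6 had the most counts, with 9.12, 6.58 and 6.01 CPM in the young and 5.96, 6.65 and 5.12 in the aged libraries. These overlapped (log2 -0.24, SE 0.17, adjusted p = 0.716). Among the 10, only Pcdhga6 had a positive log2 fold change, 0.35 (SE 0.30). Those of Pcdhga7, Pcdhgb8, Pcdhga5 and Pcdhgb1 ranged from -0.61 to -0.31, with adjusted p-values from 0.196 to 0.902. The peaks of Pcdhga3 and Pcdhgb5 were too low to test.

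At the end of the gamma array lie the C-type genes, which are used more widely than the A and B genes. The starts of Pcdhgc3 and Pcdhgc4 had the most counts among the clustered starts and nearly equal means, and the start of Pcdhgc5 lay in no peak. The Pcdhgc3 start peak had 37.8, 35.3 and 35.3 CPM in the young and 35.8, 40.9 and 35.1 in the aged libraries (log2 0.05, SE 0.09, edgeR adjusted p = 0.918). The peak at 37814331 to 37816180 covers the RefSeq start of Pcdhgc4, although the annotation names it Pcdhga8. It had 15.6, 15.2 and 14.8 against 17.3, 16.0 and 15.4 CPM (log2 0.10, SE 0.11, adjusted p = 0.847). Their sum was 51.3 ± 1.77 CPM in young and 53.5 ± 3.24 CPM in aged organoids (SD, n = 3). A small peak 5371 bp upstream of the annotated Pcdhgc3 start, named for its position, had 0.84, 0.68 and 0.63 against 1.0, 1.48 and 1.13 CPM. There every aged library lay above every young one, but the peak was not called (log2 0.79, SE 0.33, edgeR adjusted p = 0.371). Whether the age difference of the A and B genes differs from that of Pcdhgc3 and Pcdhgc4 was not tested. Per kb of peak, Pcdhgc3 averaged 29.3 CPM, Pcdhgb6 10.1, Pcdhgc4 8.5 and Pcdhgb7 3.84.

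**Figure D4:**
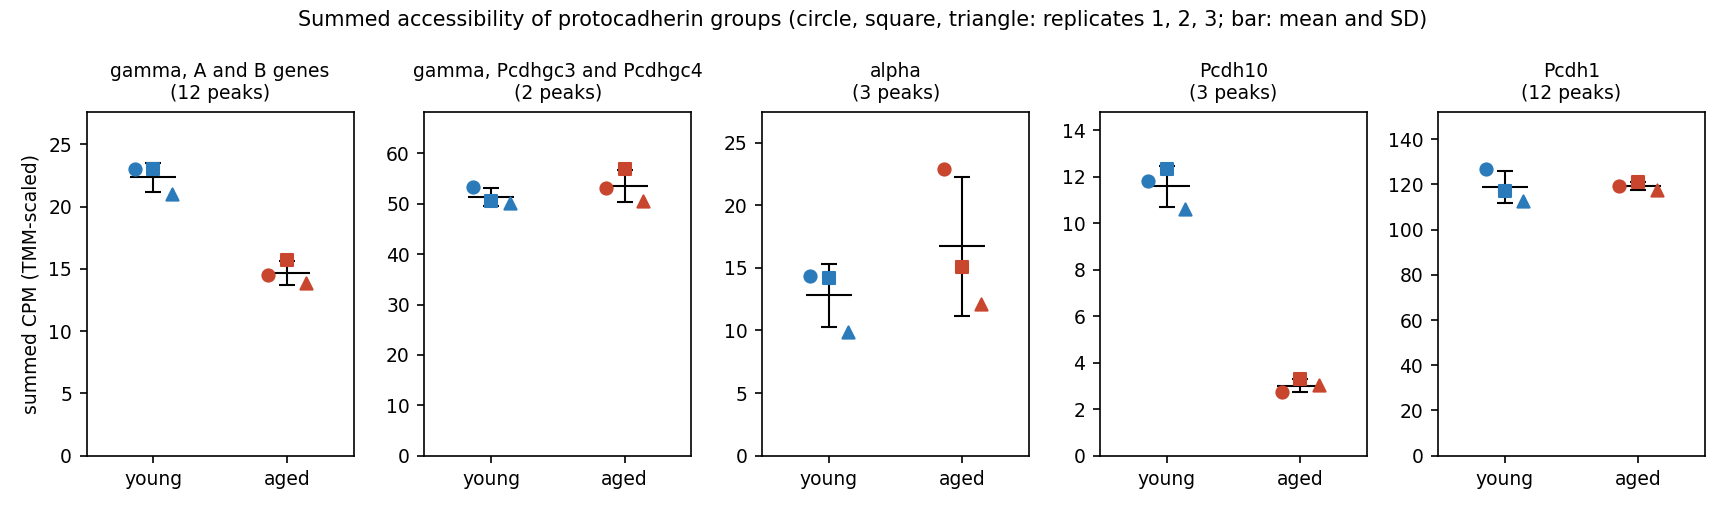
Summed CPM of each library over groups of protocadherin peaks, with mean and SD (n = 3 per age). The aged libraries lie below the young ones for the gamma A and B genes and for Pcdh10, and overlap with them for Pcdhgc3 with Pcdhgc4, for the alpha array and for Pcdh1.

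In the alpha array the accessible start was that of Pcdhac2, the C-type gene at its end. The start peak had 12.4, 12.6 and 8.60 CPM in the young and 18.5, 12.8 and 9.86 in the aged libraries, with overlapping groups (log2 0.30, SE 0.20, edgeR adjusted p = 0.713). The intron peak 5961 bp from the start (37149359 to 37149569) had 1.54, 1.1 and 1.05 against 4.32, 2.22 and 2.14 CPM, and was the peak called higher in aged organoids (log2 1.31, SE 0.28, adjusted p = 0.0094). Every aged library lay above every young one, with aged replicate 1 the highest by far. The call was lost without aged replicate 1 (adjusted p = 0.186), without young replicate 2 (0.0650) and with thinned libraries (0.259), over a range from 0.00056. At Pcdha7 a small exon peak held 3, 13 and 5 counts in the young and 3, 2 and 4 in the aged libraries and was not tested.

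The beta array had 2 small peaks. Its accessible start was that of Pcdhb1, the first gene of the array, with 0.84, 1.36 and 0.84 CPM in the young and 0.95, 1.25 and 1.9 in the aged libraries (log2 0.36, SE 0.31, edgeR adjusted p = 0.788). A peak within Pcdhb13 held 1, 10 and 0 counts against 0, 4 and 2 and was not tested. Over all 20 clustered peaks the sum was 88.4 ± 5.23 CPM in young and 87.6 ± 7.0 CPM in aged organoids. The differences of the means, aged minus young, were -7.64 CPM for the gamma A and B genes, 3.91 for the alpha array and 2.21 for the Pcdhgc3 and Pcdhgc4 starts, and the groups overlapped in both of the latter. Over the 27 other peaks it was 186 ± 8.15 and 173 ± 3.6 CPM (SD, n = 3).

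The span of the 3 arrays held 33 peaks, of which 13 carried the names of other genes, and 2 of the 9 tested were called lower in aged organoids, against 0.51% of all tested peaks. An intron peak 39.8 kb from the TSS of Gm10544, between the alpha and beta arrays, had 2.11, 1.63 and 1.58 CPM in the young and 0.36, 0.28 and 0.43 in the aged libraries (log2 -2.22, SE 0.34, edgeR adjusted p = 9.3e-05). The promoter peak of 3222401L13Rik, next to the gamma array, had 2.67, 2.61 and 1.79 against 0.91, 1.16 and 0.74 CPM (log2 -1.32, SE 0.27, adjusted p = 0.0049). In both peaks every aged library lay below every young one. They are not members and were named because they were called. The Gm10544 peak passed the filter on low counts through its young libraries, so a difference at it was favoured by the filter. Peaks of the span are neighbours and are not independent, so the count of calls among them is a description only.

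Passage is the other condition in the labels, and a linear term for it was fitted beside age. Passage, replicate number and the culture code of the titles change together, so a passage difference cannot be told apart from a culture difference. By edgeR, 0 of the 41 tested protocadherin peaks were called, with 3 at an unadjusted p under 0.05, and DESeq2 called 0. Of all tested peaks 0.00303% were called, and 5.27% had an unadjusted p under 0.05. The smallest adjusted p was 0.207, at the Pcdhac2 start, where the log2 change per passage was 0.38. In both ages the value at that start was lowest at passage 2. The Pcdhac2 intron peak, called higher for age, was also among the 3 (log2 change per passage 0.45, edgeR unadjusted p = 0.0042, adjusted p = 0.708). In both ages its value was highest at passage 4. Without young replicate 2, or in a separate fit with no filter on low counts, 1 protocadherin peak was called for passage, the Pcdhac2 start in both.

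Genes that work with the protocadherins were described at their promoters, 1 peak per gene, where the median log2 fold change over 14319 tested genes was 0.03 and 1.49% were called. Of 29 other cadherin superfamily genes, 16 had a tested promoter peak and 1 was called. This was Cdh2, which encodes N-cadherin, at a mean of 1.09 CPM (log2 -1.47, SE 0.37, edgeR adjusted p = 0.0385), and DESeq2 called 0 of the list. Celsr1, of planar cell polarity, had a log2 fold change of 0.37 (SE 0.14) and an adjusted p of 0.335, and the median of the 16 was 0.06. Cdh1, added here as the gene of the epithelial E-cadherin, stood at 47.7 CPM (log2 0.18, SE 0.09).

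Of 20 regulators of the clustered genes, Ctcf, Smc3, Stag1, Stag2, Wapl, Smchd1, Tet1, Tet3 and Wiz had no annotated promoter peak and were not tested. Of the 11 tested, edgeR called 0, with 1 at an unadjusted p under 0.05 and 0 called by DESeq2. Their median log2 fold change was 0.05. The smallest p-values were those of the DNA methyltransferase gene Dnmt3a (0.33, SE 0.12, adjusted p = 0.259) and the neuronal gene repressor Rest (0.18, SE 0.11, adjusted p = 0.649). Of 22 effector genes (the WAVE complex, focal adhesion kinases and others), 14 were tested and edgeR called 0, with 1 at an unadjusted p under 0.05 and 0 called by DESeq2. The median was -0.01, and the smallest p-values were those of the focal adhesion kinase gene Ptk2 (0.24, SE 0.10, adjusted p = 0.398) and of Ush1c, a scaffold of the brush border (0.20, SE 0.12, adjusted p = 0.659).

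Marker genes of other cell types were set beside the Pcdh10 and gamma differences. Summed over their promoter peaks, neural and glial markers had 54.5 to 65.1 CPM in the young and 61.2 to 64.9 in the aged libraries. Stromal and endothelial markers had 26.3 to 34.3 and 29.0 to 34.8 CPM, and immune markers 11.6 to 13.3 and 11 to 12.2 CPM. All 3 sums overlapped between the ages, and their part in the Pcdh10 and gamma differences was not tested. Each sum was weighted towards its largest gene, which was Ret with a mean of 26.9 CPM, Pdgfra with 19.3 and Cd68 with 9.60. Of 14 neural and glial genes 7 had no promoter peak, among them Elavl4, Syt1 and Stmn2, and of the stromal and endothelial genes Pecam1, Cdh5, Acta2 and Dcn had none. By the same rule the epithelial genes Krt19, Vil1 and Elf3 had none, so a missing peak is no sign that a cell type was absent. In edgeR 0 of the 7 neural, 5 stromal and endothelial and 3 immune genes tested were called, with 0, 1 and 0 at an unadjusted p under 0.05 and 0 called by DESeq2. The smallest p-values belonged to Ret (log2 0.16) and Tubb3 (0.22), to Kdr (-0.65) and Pdgfra (0.12), and to Cd79a (-0.80) and Cd3g (-0.24). Among 10 enteroendocrine and tuft genes tested, both edgeR and DESeq2 called 0, with 1 at an unadjusted p under 0.05, and the smallest p-values were those of Trpm5 (0.49, SE 0.17) and Chgb (-0.18, SE 0.14). Among 11 epithelial genes tested both called 0, with 3 at an unadjusted p under 0.05, led by Cldn7 (0.27, SE 0.09) and Olfm4 (-0.30, SE 0.13).

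**Figure D5:**
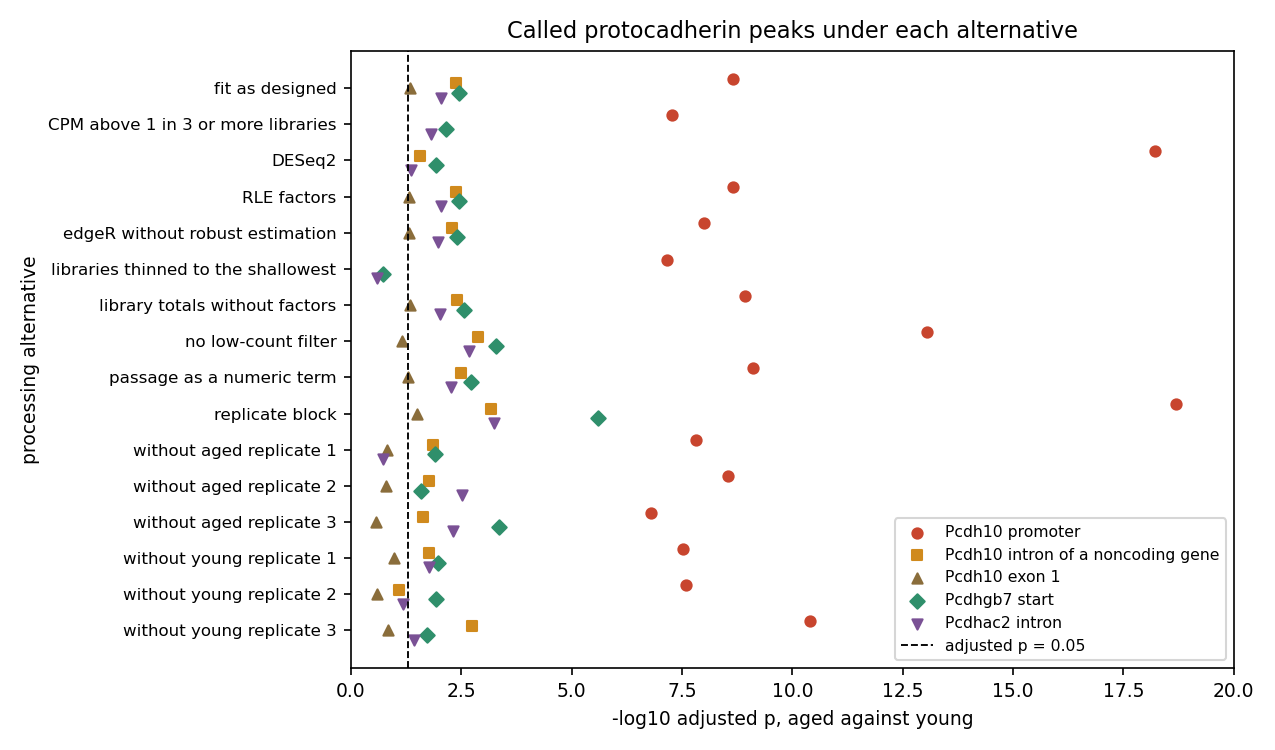
Adjusted p (as -log10) of the 5 called protocadherin peaks in the fit as designed and in each of 15 processing alternatives, where the peak was tested. The dashed line marks an adjusted p of 0.05: the Pcdh10 promoter peak lies right of it throughout, Pcdhgb7 in all alternatives but 1, and the Pcdh10 exon peak in 4 of 12.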

How the data were processed

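Per the file headers, the authors' deposited table holds raw featureCounts counts over consensus peaks, 1 column per library, on GRCm38. A second deposited table annotates each peak with a class, the nearest gene and the distance to its TSS. Per the submitters' processing notes, the tools included featureCounts 2.0.1, MACS2 2.2.7.1, BWA 0.7.17-r1188, Picard 2.23.1, SAMtools 1.10 and Trim Galore 0.6.4. Whether reads or fragments were counted, and the handling of the Tn5 offset, duplicates and reads with several matches, are not given in the sources used here. Molecular identifiers are not mentioned in them, so counts may hold PCR copies. Printed positions are 1-based, as in the annotation; the starts in the count table are 1 bp off.

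Aged was compared with young by edgeR 4.0.16 (R 4.3.3), quasi-likelihood F test with robust estimation, TMM factors and filterByExpr (minimum count 10), leaving 132055 peaks to test and 24678 untested. The threshold was a Benjamini-Hochberg adjusted p of 0.05 over all tested peaks. CPM use TMM-scaled totals. Passage was tested beside age. Alternatives were DESeq2 1.42.0, RLE factors, no factors, other filters, non-robust estimation, thinned libraries, passage as a term, the replicate block and leaving out each library. A young and an aged library with the same number carry the same culture code and passage in their titles, and the replicate block, an alternative, takes them as pairs; the reported test has no block. Their deviations from the group means correlated at r = 0.074, 0.126 and 0.144.

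The members and the 8 lists (135 entries) were chosen with earlier results of these data known. Named were the called protocadherin peaks, the 5 clustered and 5 other peaks with the smallest p, the leading peak of each non-clustered gene, the 3 highest of each array and the 2 smallest p per list. Further names are said to be chosen by position or call.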

Additional observations from a re-analysis of the deposited data

How the results depend on the processing

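The Pcdh10 promoter peak stayed called, with its direction, in all 15 alternatives. Against 1491 calls over all tested peaks, DESeq2 gave 883, thinned libraries 613, the replicate block 3523 and leaving out 1 library 830 (without aged replicate 3) to 1902. The 2 clustered calls became 0 with thinned libraries, 4 with no low-count filter, 5 with the replicate block and 1 (without aged replicate 1 or young replicate 2) to 3 without 1 library. The 3 other protocadherin calls became 1 with CPM above 1 in 3 or more libraries, 1 with thinned libraries and 1 (without young replicate 2) to 2 without 1 library, and stayed 3 with the replicate block. The 4 passage calls over all peaks became 0 with the CPM filter, 0 with DESeq2, 7 with thinned libraries, 32 with no filter and 0 (without young replicate 1) to 53 (without young replicate 2), with 20 without aged replicate 1 and 8 without young replicate 3. The 0 passage calls among protocadherins became 1 with no filter and 0 to 1 without 1 library. Leaving out 1 library turned the sign of the log2 fold change at the Pcdhgc3 start (-0.020 without aged replicate 2, up to 0.093 without aged replicate 3) and at the Pcdh1 promoter (from -0.13 without young replicate 2 to 0.018 without young replicate 1), neither of them called. The causes of these shifts were not tested. Thinning and leaving out a library also lower the total counts that enter a fit. Among the values of single named peaks under alternatives, 278 kept direction and side of the threshold, 13 lost and 7 gained a call, and 2 turned sign. A block with passage as a term could not be fitted, because the replicate number fixes the passage. The depth of young replicate 1 limits the small peaks: the peaks of the gamma A and B genes held 1 to 65 counts there.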
